A study of Mus musculus with 12 samples.

Results

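Heterotrimeric G proteins and the RGS (regulator of G protein signalling) proteins that shut them off were followed in mouse pituitary cells sorted as corticotrophs. The mice were without, during or after glucocorticoid treatment. The members were the genes whose symbol names an alpha, beta or gamma subunit (Gna, Gnb or Gng) or belongs to the Rgs series. This gave 54 of the 55304 genes listed, of which 16 encode alpha subunits, 5 beta subunits, 12 gamma subunits and 21 RGS proteins. The rule read symbols alone and no expression values.

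A receptor that binds its ligand makes the alpha subunit exchange GDP for GTP, and alpha and the beta-gamma dimer then part and act on their effectors. The alpha classes differ in effector: Gs raises cyclic AMP through adenylyl cyclase, Gi/o lowers it, Gq/11 activates phospholipase C beta and G12/13 acts on the actin cytoskeleton. RGS proteins speed GTP hydrolysis by Gi/o and Gq/11 alpha subunits and so end the signal. In corticotrophs, the ACTH-secreting cells of the anterior pituitary, the CRH receptor couples to Gs and the vasopressin V1b receptor to Gq/11.

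The cells were eGFP-positive, viable single cells sorted from the anterior pituitary of male *Pomc*-eGFP mice on a C57Bl6/J background, received at 8 weeks of age. In all groups the mice carried the transgene, in which the *Pomc* promoter drives eGFP, so the sort takes any cell in which that promoter is active. Control mice (group A) drank water only, and the DEX group (group B) drank dexamethasone, a synthetic glucocorticoid, at 2.5 µg/ml over 4 weeks. Groups C and D had the same DEX treatment and were then kept off it for 7 days (1 week) and 28 days (4 weeks). Per the paper, all groups were collected together after 8 weeks. Group B drank water for 4 weeks before DEX and group C for 3 weeks, whereas group D began with DEX, so age at DEX treatment differed. Each group had 3 libraries, each labelled as a pool of 3 mice, so n = 3 counts pools. In places the paper allows for fewer pituitaries per pool, and it states that mice of a pool shared a cage. A p-value sets a difference between groups against the spread between pools, and so between cages, not between mice.

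Reads on genes ranged from 7719894 to 12848078 per library. The values are normalised counts, that is CPM on the library size after TMM scaling, and 1 read was worth 0.0787 to 0.127. Of the 6 corticotroph marker genes, all were detected in every group. *Pomc*, the ACTH precursor, was 34562 to 74260 in the control pools, 4241 to 8521 in the DEX pools, 43612 to 284740 after 1 week and 48189 to 80216 after 4 weeks. Pool 3 of the 1 week group had the lowest value of all libraries for 4 of the 6 markers, among them *Tbx19*, the corticotroph transcription factor, at 39.5 against 94.4 to 1490 elsewhere, and *Crhr1*, the CRH receptor, at 12.5 against 49.2 to 201. It was not the lowest for *Pomc* (43612) or for *Neurod1* (10.8, against 8.43 in pool 2 of the 4 week group). The 6 markers did not move together. Means of *Tbx19* (919), *Avpr1b*, the V1b receptor (100.4), and *Gpc5* (93.6) in DEX were above control (302, 32.6 and 39.6). Those of *Pomc*, *Crhr1* and *Neurod1* were below. Without overlap, 2 markers were higher and 1 lower in DEX than in control, and 1 was higher and 4 lower at 4 weeks than in DEX. Other cell types were also present: *Gh*, the somatotroph hormone, took 8.20 to 22.9% of reads and *Prl*, the lactotroph hormone, 3.50 to 10.3%. In bulk RNA of this kind, fewer cells of a type and less RNA per cell cannot be told apart.

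Of the 54 members, 48 passed the filter of a value above 0.1 in at least 3 libraries. The 6 that did not were the gamma subunits *Gngt1* and *Gng8*, the gustducin alpha subunit *Gnat3*, and *Rgs13*, *Rgs18* and *Rgs21*, each with at most 6 reads in all 12 libraries together. *Rgs21* had 0 reads. A mean above 1 over the 12 libraries was found for 43 members.

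The genes lie on 18 chromosomes of GRCm38, and 21 of them lie within 200000 bp of another member, in 10 groups. The R4 family, the small RGS proteins with little beyond the RGS domain, had 9 of its 10 genes on chromosome 1. *Rgs4* (chr1:169741477-169747642, minus strand) lies 45663 bp from *Rgs5*, and *Rgs16* (chr1:153740349-153745468, plus strand) lies 40025 bp from *Rgs8*. *Rgs2*, *Rgs13* and *Rgs1* follow each other on the minus strand between 143999338 and 144249242 of chromosome 1. Paralogous alpha subunits also sat side by side, namely *Gna11* with *Gna15*, *Gnaq* with *Gna14*, *Gnai3* with *Gnat2* and *Gnai2* with *Gnat1*. Levels of neighbours were far apart in some groups and close in others: *Rgs4* had a mean of 94.4 normalised counts per kb of exon and *Rgs5* 0.105, while *Rgs9* had 11.7 and *Gna13*, 64701 bp away, 9.03.

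For the members with an unadjusted F test p under 0.05, a mean above 10 and a single start site in RefSeq, the 250 bases before that start are shown, 5′ to 3′ on the strand of the gene (RefSeq, GRCm38.p6). They are *Rgs4* (chr1:169747643-169747892, minus strand), *Rgs16* (chr1:153740103-153740352, plus strand) and *Rgs9* (chr11:109298182-109298431, minus strand). Capitals mark TGACG on either strand, the core of the cyclic AMP response element, and none of the 3 windows held AGAACA, the left arm of the glucocorticoid response element, on either strand.
Rgs4: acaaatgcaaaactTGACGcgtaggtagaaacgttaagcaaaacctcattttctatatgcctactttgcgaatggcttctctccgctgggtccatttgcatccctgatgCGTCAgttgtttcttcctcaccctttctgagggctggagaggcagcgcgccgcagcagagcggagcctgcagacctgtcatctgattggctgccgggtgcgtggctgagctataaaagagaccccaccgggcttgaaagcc
Rgs16: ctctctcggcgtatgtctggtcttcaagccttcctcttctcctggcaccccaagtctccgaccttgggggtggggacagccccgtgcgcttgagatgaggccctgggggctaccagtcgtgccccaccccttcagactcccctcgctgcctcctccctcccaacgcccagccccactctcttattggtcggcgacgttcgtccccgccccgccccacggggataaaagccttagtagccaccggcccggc
Rgs9: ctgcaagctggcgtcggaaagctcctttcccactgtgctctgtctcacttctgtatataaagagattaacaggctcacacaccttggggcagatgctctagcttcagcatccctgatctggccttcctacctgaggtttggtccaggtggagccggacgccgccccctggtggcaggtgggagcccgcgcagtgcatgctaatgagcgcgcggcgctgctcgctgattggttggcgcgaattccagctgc
The *Rgs4* window held TGACG 2 times, 236 bases before the start on the gene's strand and 141 bases before it on the other strand, and the *Rgs16* and *Rgs9* windows held it 0 times. RefSeq windows were found for 40 of the 54 members, 53 windows in all. TGACG occurred in 11 of these 53 (20.8%), against 17.8% of all 32817 windows of this length, and AGAACA in 11 (20.8%) against 16.1%. The full palindromes TGACGTCA (which contains TGACG) and AGAACA followed after 3 bases by TGTTCT (which contains AGAACA) were in 0 of the 53, against 1.55% and 0.00914% of all windows. These counts describe letters in the windows only.

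Levels between genes were compared per kb of exon. Among alpha subunits *Gnas*, the stimulatory subunit that raises cyclic AMP, made up a mean of 67.1% of the alpha signal per kb (60.5 to 72.8% over the 12 libraries). It was followed by the inhibitory subunits *Gnai2* (mean 13.8%) and *Gnai3* (5.32%) and by *Gna11* (4.49%), the main Gq/11 subunit here. *Gnb3* gave 44.2% of the beta signal and *Gnb4* 0.527%. The gamma signal was spread over *Gng4* (22.9%), *Gng2* (22.4%), *Gng3* (18.4%), *Gng5* (13.3%) and *Gng11* (13.2%). In the RGS set *Rgs4* (38.4%) and *Rgs2* (37.0%) came first, with ranges of 15.3 to 76.9% and 10.1 to 59.8% that overlapped, and *Rgs9* was the third at 6.17%. The exon length of *Gnas*, 11186 bp, includes exons of the other transcripts of that locus, so its level per kb of any one transcript is not given by this value.

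**Figure D1:**
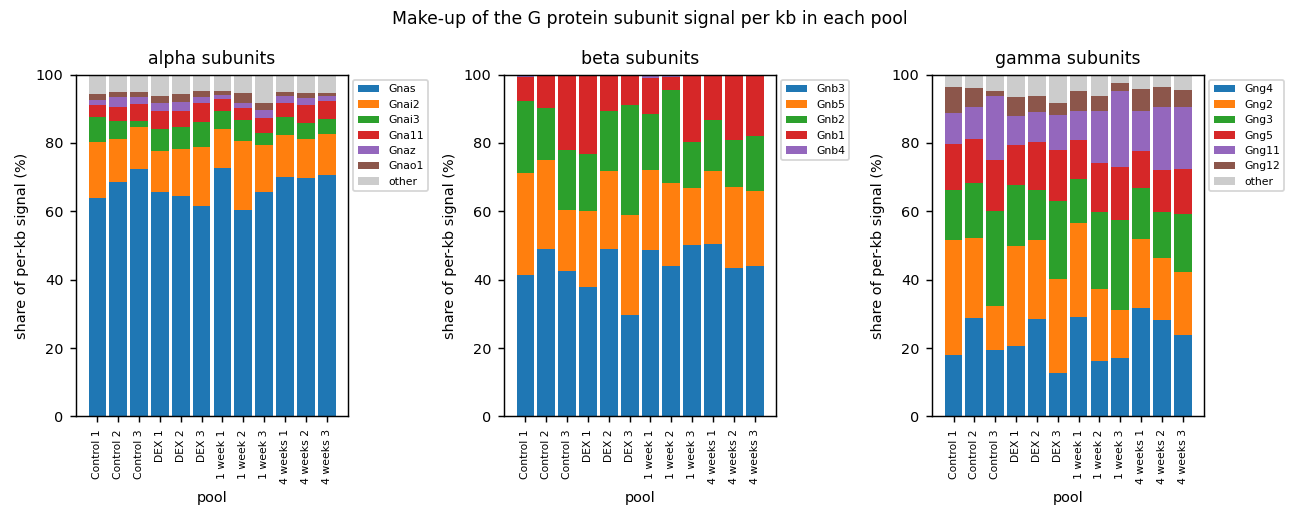
Share of the per-kb signal (y axis, %) of each alpha (left), beta (middle) and gamma (right) subunit in each of the 12 pools (x axis), stacked to 100%. Gnas fills 60.5 to 72.8% of the alpha bar in every pool, while the order of the beta and gamma subunits varies between pools, with Gnb1 between 3.81 and 23.0%.

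No member passed limma's test at an adjusted p under 0.05, either in the F test over the 4 groups or in any of the 6 pairwise contrasts. Over all 24736 genes tested the F test called 78 (0.315%). At an unadjusted p under 0.05 the F test gave 9 of 48 members (18.8%), against 9.21% of all genes. edgeR's quasi-likelihood test on the recovered reads called 0 members in every comparison (0.667% of all genes in the F test). DESeq2 called 3 members over the 4 groups, *Rgs1*, *Rgs10* and *Gngt2* (all genes 2.97%), and limma with array weights, which gives less weight to pools that deviate, called 6, *Rgs1*, *Rgs4*, *Rgs9*, *Rgs14*, *Gnb4* and *Gngt2* (all genes 4.32%).

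Of the 9 members with an unadjusted p under 0.05, 7 were RGS genes and the other two gamma subunits. Limma's adjusted p in the F test was lowest for *Gngt2* (0.150), followed by *Rgs1* (0.190), *Rgs14* (0.217), *Rgs9* (0.319) and *Rgs10* (0.330). *Rgs16*, *Rgs4*, *Rgs3* and *Gng7* had adjusted p from 0.454 to 0.523 in limma. Over the alternative settings the adjusted p ranged from 0.0156 to 0.418 for *Gngt2*, from 0.0302 to 0.568 for *Rgs1*, from 0.0203 to 0.509 for *Rgs14*, from 0.0232 to 0.696 for *Rgs9* and from 0.0161 to 0.730 for *Rgs10*. *Rgs14* had 0 reads in every control and DEX library and passed the filter only through the recovery pools. Its place among these members, and its calls with array weights, are therefore no support for a difference.

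**Figure D2:**
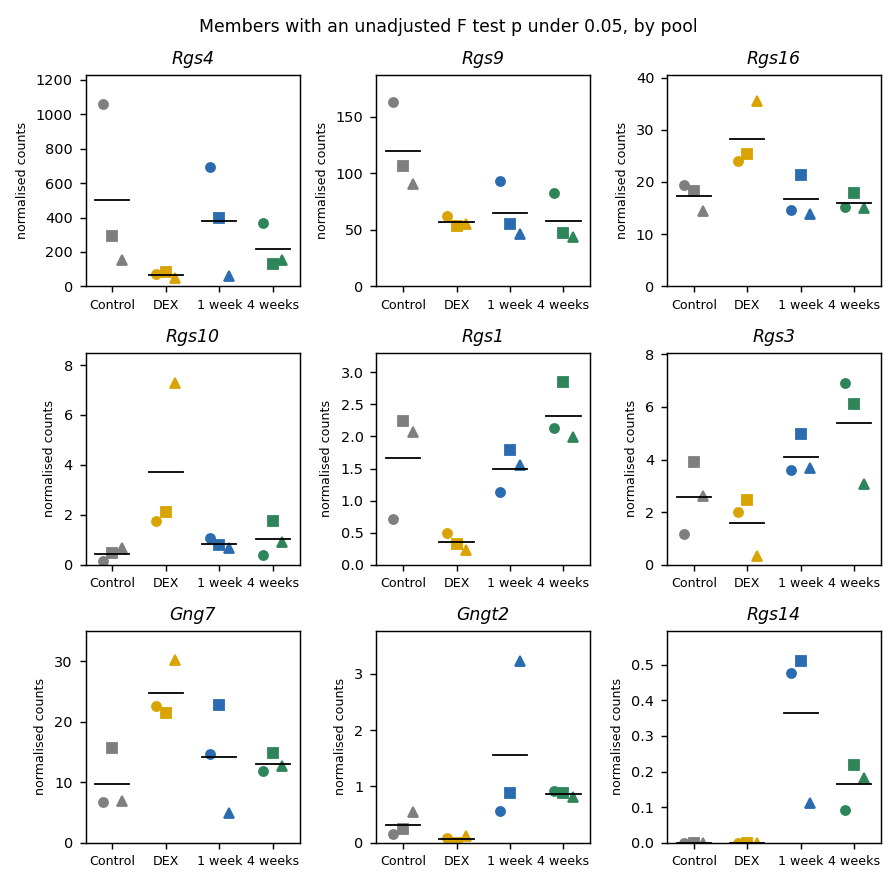
Normalised counts (y axis, CPM on the scaled library size) of the 9 members with an unadjusted F test p under 0.05, by group (x axis). Circles, squares and triangles are pools 1, 2 and 3, and the bar is the group mean. The DEX pools of Rgs4, Rgs9 and Rgs1 lie below, and those of Rgs16, Rgs10 and Gng7 above, all 3 control pools.

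Against control, the DEX pools had lower group means of *Rgs4*, *Rgs9*, *Rgs1*, *Rgs20* and *Gnaq* and higher group means of *Rgs10*, *Gng7*, *Rgs16* and *Rgs12*. There was no overlap between the pools for any of these members, although none passed the adjusted test. The median log2 difference of the 43 members with a mean above 1 was -0.18, against 0.017 over 15756 genes of that level, and 8 of the 43 (18.6%) differed by more than 1 on the log2 scale, against 7.76% of genes. Those 8 comprised 6 of 15 RGS genes, 1 of 14 alpha subunits and 1 of 14 beta and gamma subunits. An unadjusted p under 0.05 was seen for 10 of 48 members (20.8%), against 6.8% of all genes, and an adjusted p under 0.05 for 0 of 48, against 0.121%. Array weights called 1 member, *Rgs4* (all genes 0.671%), DESeq2 called 1, *Rgs10* (all genes 0.768%), and edgeR called 0 (all genes 0.182%). Pools did not overlap for 5 members that were higher in DEX (background 8.16%) and 6 that were lower (6.44%).

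Among the Gs subunits, *Gnas* was 3368, 4499 and 7010 normalised counts in the control pools and 3757, 3560 and 3293 in the DEX pools. After 1 week it was 5331, 3232 and 4523, and after 4 weeks 4875, 5219 and 5443. The DEX pools lay at the lower end of the control range and overlapped it, while all 3 pools at 4 weeks lay above all DEX pools. The log2 difference of DEX from control was -0.42 (SE 0.458, 95% interval -1.40 to 0.55). That interval included 0, and it also included falls as large as -1.40, which these pools therefore do not exclude. The *Gnas* locus (chr2:174284320-174346744, plus strand) shares 1469 bp of exon with *Gm20721* on the other strand, and the value of *Gm20721* was 0.891 to 0.945 of that of *Gnas* in all 12 libraries. The kit used to make the libraries does not mark strand, so reads from the shared stretch, 13.1% of the *Gnas* exons, cannot be told apart. Opposite-strand partners that share exon sequence were annotated for other members too. The partner had the higher mean for *Gng3* (51.1, *Bscl2* 91.2), *Gnal* (15.01, *Mppe1* 26.7), *Gng13* (1.02, *Chtf18* 6.43), *Gngt2* (0.702, *Abi3* 0.771) and *Rgs20* (3.14, *Atp6v1h* 128). In this order the shared stretch was 24.2%, 7.63%, 51.6%, 12.5% and 3.00% of the member's exons. Partners with a lower mean shared 20.4% of the exons of *Gng2* (*Gm48283*) and 13.3% of those of *Gna12* (*Amz1*), among others. Reads from such shared stretches cannot be told apart either. *Gnal*, which encodes the Golf alpha subunit, was 14.95, 16.8 and 16.2 in control (16.0 ± 0.964, mean ± SD, n = 3) and 11.3, 15.04 and 10.7 in DEX (12.3 ± 2.36). It read 17.97, 15.3 and 15.1 at 1 week and 18.8, 14.7 and 13.2 at 4 weeks. Pool 2 of DEX overlapped control, and all 1 week pools lay above all DEX pools.

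The Gi/o subunits, which lower cyclic AMP, were led by *Gnai2* at 290, 284 and 403 normalised counts in control and 232, 255 and 310 in DEX. Recovery pools read 277, 363 and 327 at 1 week and 290, 288 and 310 at 4 weeks, so all groups overlapped. The DEX difference was -0.28 on the log2 scale (SE 0.242, 95% interval -0.80 to 0.23). *Gnao1*, the Go subunit common in neurons and endocrine cells, was 84.6, 98.01 and 131 in control and 102, 113 and 103 in DEX, then 72.1, 150.1 and 142 at 1 week and 98.5, 93.8 and 70.3 at 4 weeks. Its 4 week pools lay below its DEX pools, with a log2 difference of -0.29 and an interval of -0.90 to 0.32 (-0.14 without pool 3 of the 4 week group). *Gnai1* was 5.90, 19.1 and 12.7 in control and 35.2, 23.2 and 7.18 in DEX. It was 7.98, 5.61 and 28.8 at 1 week and 19.4, 33.9 and 19.9 at 4 weeks, the only member with a mean above 1 whose 4 week pools all lay above control. That 4 week difference was 1.06 (SE 0.621, 95% interval -0.26 to 2.38) and 0.59 without pool 1 of control, with an adjusted p of 0.842 in limma (0.305 to 1 over the alternatives). *Gnai3* and *Gnaz* had intervals that included 0 for DEX against control, at -0.20 to 1.16 and -0.95 to 0.58. The transducin subunits of photoreceptors, *Gnat1* and *Gnat2*, were low, with means of 1.55 and 9.12 over the 12 libraries. *Gnat1* read 0.629, 2.71 and 2.28 in control and 0.248, 1.06 and 0 in DEX, overlapping groups with a log2 difference of -2.30 (95% interval -4.28 to -0.33, adjusted p = 0.652 in limma, 0.380 to 1 over the alternatives), or -1.41 without pool 3 of DEX.

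Gq/11 subunits activate phospholipase C beta, the route of the V1b receptor. *Gna11* was 66.4, 98.8 and 182 in control and 111, 93.3 and 109.6 in DEX, with a log2 difference of -0.03 (95% interval -0.71 to 0.66). At 1 week it read 92.4, 65.6 and 111, and at 4 weeks 107, 144 and 145, so that all groups overlapped control. *Gnaq* was 35.6, 36.3 and 62.8 in control and 27.0, 25.02 and 18.2 in DEX. It then read 37.1, 21.2 and 88.1 at 1 week and 28.1, 24.96 and 27.9 at 4 weeks. The DEX and the 4 week pools of *Gnaq* lay below all control pools, while the 1 week pools spread across all groups. The DEX difference was -0.91 (SE 0.401, 95% interval -1.76 to -0.05, adjusted p = 0.701 in limma, 0.310 to 1 over the alternatives), and the 4 week difference was -0.68 (95% interval -1.54 to 0.17), or -0.42 without pool 3 of control. *Gna14* was 3.85 ± 0.985 in DEX and 8.33 ± 2.31 at 1 week (SD, n = 3), with no overlap between these groups and an adjusted p of 0.389 in limma (0.161 to 0.744 over the alternatives). *Gna15*, a subunit best known from blood cells, stayed at 0.190 to 1.39.

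The G12/13 subunits are known for their effects on cell shape. *Gna13* was among the steadiest members, with 55.3, 57.1 and 61.7 in the control pools, 50.1, 56.7 and 49.6 under DEX, 60.5, 48.2 and 74.5 after 1 week and 65.2, 59.9 and 56.8 after 4 weeks. The interval of its DEX difference ran from -0.62 to 0.31 on the log2 scale. *Gna12* was 11.4, 10.2 and 46.4 in control and 19.9, 9.16 and 17.2 in DEX, then 12.4, 9.81 and 37.1 at 1 week and 7.58, 18.2 and 26.1 at 4 weeks. All groups overlapped, and the control and 1 week means rested on pool 3.

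Beta subunits pair with gamma subunits in the dimer, which carries signal to potassium channels among its effectors. *Gnb3* read 139, 221 and 202 in the control pools, 138, 197 and 121 under DEX, 189, 226 and 200 after 1 week and 222, 192 and 218 after 4 weeks. All groups overlapped, and the DEX difference was -0.30 on the log2 scale (95% interval -0.84 to 0.24). *Gnb5*, the partner of the R7 family of RGS proteins, was 118, 141 and 100.03 in control and 96.3, 108 and 139 in DEX, then 109, 145 and 80.05 at 1 week and 111, 124 and 129 at 4 weeks. Its group means lay between 111 and 121, with a DEX difference of -0.06 (95% interval -0.61 to 0.48). *Gnb1* spread from 31.6 to 167 over the libraries, with its 3 highest values in pool 3 of control, pool 3 of the 4 week group and pool 1 of the DEX group. *Gnb4* was 9.44, 12.4 and 8.81 in control, 6.79, 8.67 and 7.74 in DEX and 21.1, 15.9 and 10.2 at 1 week. All 1 week pools lay above all DEX pools, with a log2 difference of 0.96 (SE 0.321, adjusted p = 0.235 in limma, 0.0207 to 0.606 over the alternatives). DESeq2 (adjusted p = 0.0385) and limma with array weights (adjusted p = 0.0207) called it.

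**Figure D3:**
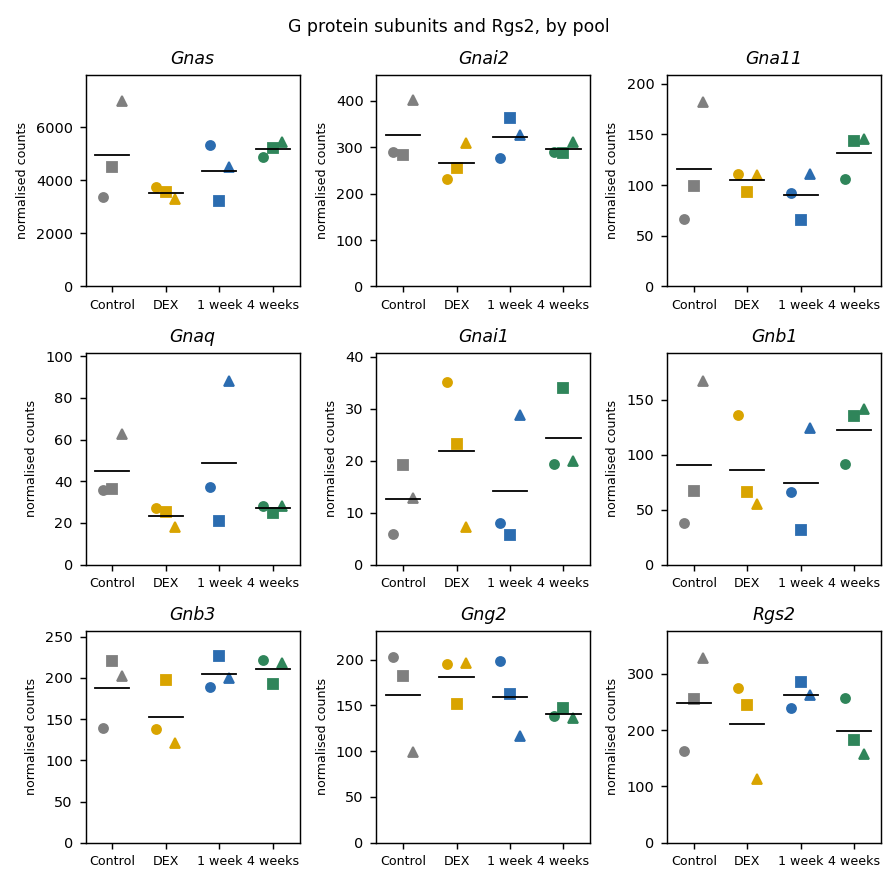
Normalised counts (y axis, CPM on the scaled library size) of 8 G protein subunits and of Rgs2, by group (x axis). Circles, squares and triangles are pools 1, 2 and 3, and the bar is the group mean. In every panel but that of Gnaq the DEX pools overlap the control pools.

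Gamma subunits tether the dimer to the membrane through a lipid anchor. *Gng2* was 203, 182 and 99.6 in the control pools, 196, 152 and 197 under DEX, 198, 163 and 117 after 1 week and 138, 147 and 137 after 4 weeks. *Gng4* was 82.9, 173 and 116 in the control pools, 104, 144 and 70.0 under DEX, 158, 95.2 and 109 after 1 week and 164, 172 and 136 after 4 weeks. Both overlapped between DEX and control, with intervals of -0.39 to 0.83 for *Gng2* and -0.89 to 0.45 for *Gng4* on the log2 scale. *Gng7*, known for its role with Golf in the striatum, was 6.77, 15.7 and 6.96 in control and 22.7, 21.4 and 30.3 in DEX. It read 14.7, 22.8 and 4.89 at 1 week and 11.9, 14.8 and 12.6 at 4 weeks. Every DEX pool lay above every control and 4 week pool. The log2 difference of DEX from control was 1.43 (SE 0.465, 95% interval 0.44 to 2.42, adjusted p = 0.432 in limma, 0.106 to 0.981 over the alternatives). *Gng11* was 13.2 ± 1.65 in DEX and 25.2 ± 7.78 at 4 weeks (SD, n = 3), and its difference of 0.89 was called only with array weights (adjusted p = 0.0435, against 0.505 in limma without them).

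*Gngt2*, the gamma subunit of cone transducin, rested on few reads: 2, 2 and 5 in the control pools, 1, 0 and 1 under DEX, 6, 7 and 29 after 1 week and 10, 8 and 9 after 4 weeks. As DEX was at or under the floor of 3 reads in each library, 1 week and 4 weeks were at least 5.65-fold and at least 3.15-fold higher than the group mean of that floor, and without pool 3 the bound at 1 week was 2.64-fold. Its adjusted p in limma was 0.0667 for 1 week against DEX (0.0174 to 0.236 over the alternatives) and 0.102 for 4 weeks against DEX (0.00653 to 0.312). Without pool 1 of the 1 week group the first was 0.0459, and without pool 3 of that group the second was 0.0460. The 8 endothelial markers summed to 6.63 to 12.02 in DEX, 33.4 to 196 at 1 week and 88.1 to 168 at 4 weeks, and limma called 1 of the 8 higher at 1 week than in DEX (*Kdr*) and 6 of the 8 at 4 weeks. None of them was at 0 in all libraries. The 8 macrophage and myeloid markers summed to 24.8 to 35.1, 43.3 to 75.8 and 39.4 to 84.8, with 0 called by limma in these contrasts and 5 of the 8 at an unadjusted p under 0.05 in the F test. Their part in the *Gngt2* values was not tested. *Gng3*, *Gng5*, *Gng10*, *Gng12* and *Gng13* overlapped between DEX and control.

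In the R4 family, *Rgs4*, a regulator of Gi/o and Gq/11 signalling, had the largest negative difference between DEX and control of all members tested. It read 1057, 295 and 152 normalised counts in control and 74.4, 81.3 and 50.5 in DEX. After withdrawal it read 691, 399 and 57.5 at 1 week and 367, 132 and 153 at 4 weeks. All DEX pools lay below all control and all 4 week pools, and at 1 week pool 3 lay within the DEX range and the other two pools above it. The DEX difference was -2.43 (SE 0.765, 95% interval -4.05 to -0.80, adjusted p = 0.399 in limma, 0.0411 to 0.981 over the alternatives), and array weights alone called it. The 1 week value against DEX was 1.90 (95% interval 0.27 to 3.52, adjusted p = 0.359 in limma, 0.0149 to 0.640 over the alternatives). Without pool 3 of the 1 week group, the library lowest in 4 corticotroph markers, this difference was 2.96 with an adjusted p of 0.0333 in limma, and without pool 1 it was 1.17 with 0.573.

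*Rgs2*, a regulator with a preference for Gq/11, was next to *Rgs4* in level per kb and showed no such separation. It was 162, 256 and 328 in the control pools, 276, 244 and 113 under DEX, 238, 286 and 262 after 1 week and 256, 183 and 157 after 4 weeks. All groups overlapped, with a DEX difference of -0.28 on the log2 scale (95% interval -1.01 to 0.45). *Rgs16* was 19.4, 18.3 and 14.5 in the control pools, 23.9, 25.4 and 35.4 under DEX, 14.6, 21.4 and 13.9 after 1 week and 15.2, 17.8 and 14.98 after 4 weeks. Every DEX pool exceeded every pool of the other groups, by 0.69 (SE 0.271, 95% interval 0.11 to 1.26) against control, with an adjusted p of 0.620 in limma (0.329 to 1 over the alternatives). Against DEX it was -0.77 at 1 week (95% interval -1.34 to -0.19) and -0.80 at 4 weeks (95% interval -1.37 to -0.22). *Rgs8*, its neighbour on chromosome 1, overlapped between all groups at 7.06 to 20.5.

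*Rgs1*, a regulator best known from lymphocytes, rested on 2 to 26 reads per library. It was 0.708, 2.24 and 2.07 in the control pools, 0.497, 0.327 and 0.224 under DEX, 1.14, 1.78 and 1.56 after 1 week and 2.12, 2.85 and 1.99 after 4 weeks. All DEX pools were below all pools of the other 3 groups. The difference was -1.88 for DEX against control (SE 0.577, adjusted p = 0.373 in limma, 0.0993 to 0.969 over the alternatives) and 2.46 for 4 weeks against DEX (SE 0.577, adjusted p = 0.0619 in limma, 0.00569 to 0.270). The second passed without pool 1 of control (adjusted p = 0.0459), without pool 3 of the 1 week group (0.0444), with a filter above 1 (0.0439), with array weights (0.00736) and in DESeq2 (0.00569). In control the endothelial markers summed to 10.5 to 79.8 and the macrophage and myeloid markers to 27.9 to 36.0, both overlapping the DEX ranges given for *Gngt2*. For markers with a mean above 1, the median log2 difference of DEX from control was -2.19 (endothelial) and -0.86 (macrophage and myeloid). Without overlap, 2 of 8 and 3 of 8 were lower in DEX and 0 were higher, although the means of *Lyz2* and *Csf1r* were higher in DEX. The 8 lymphocyte markers summed to 2.99 to 6.48 in control, 1.68 to 3.89 in DEX, 2.29 to 5.13 at 1 week and 3.28 to 4.06 at 4 weeks. Their part in the *Rgs1* values was not tested. *Rgs3* was 1.18, 3.89 and 2.61 in the control pools, 1.99, 2.45 and 0.336 under DEX, 3.61, 4.97 and 3.67 after 1 week and 6.93, 6.13 and 3.07 after 4 weeks. Both recovery groups lay above DEX, by 1.64 (95% interval 0.27 to 3.02) and 1.97 (95% interval 0.59 to 3.34), or by 0.84 and 1.165 without pool 3 of DEX. *Rgs5*, a pericyte gene, had at most 15 reads in a library.

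The R7 family works with *Gnb5* and includes *Rgs9*, the regulator of phototransduction and striatal dopamine signalling. *Rgs9* was 162, 106 and 90.03 in the control pools, 61.9, 53.6 and 54.7 under DEX, 92.7, 54.8 and 46.7 after 1 week and 82.8, 47.1 and 43.7 after 4 weeks. DEX and 4 week pools lay below all control pools, and 1 pool at 1 week overlapped control. Each 1 week pool lay below the control pool of its own number, but the labels do not say what the number marks. The differences from control were -1.03 for DEX (SE 0.316, 95% interval -1.70 to -0.36), -0.90 at 1 week (95% interval -1.57 to -0.23) and -1.06 at 4 weeks (95% interval -1.73 to -0.39). In limma the adjusted p were 0.366, 1 and 0.557, and over the alternatives they ranged from 0.0597 to 0.951, from 0.430 to 1 and from 0.0310 to 1. These 3 contrasts share the control pools. *Rgs7* was 56.1, 37.3 and 22.8 in the control pools, 54.7, 37.4 and 34.8 under DEX, 43.8, 18.9 and 15.1 after 1 week and 37.9, 24.5 and 36.9 after 4 weeks, and its DEX interval was -0.65 to 1.03. *Rgs11* varied from 2.68 to 35.2 between libraries, and *Rgs6* did not exceed 0.554.

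The R12 family holds *Rgs10*, a small regulator of Gi/o, and the multidomain proteins *Rgs12* and *Rgs14*. *Rgs10* was 0.157, 0.471 and 0.652 in the control pools, 1.74, 2.13 and 7.29 under DEX, 1.05, 0.765 and 0.667 after 1 week and 0.370, 1.75 and 0.902 after 4 weeks. In reads these were 2, 4 and 6 in control and 21, 26 and 65 in DEX. DEX pools lay above all control and 1 week pools, and 1 pool at 4 weeks overlapped them. The DEX difference of 2.70 was the largest positive one of all members tested (SE 0.711, 95% interval 1.19 to 4.21, adjusted p = 0.238 in limma, 0.0206 to 0.946 over the alternatives), and DESeq2 alone called it. *Rgs12* had the smallest spread within groups of the 31 members with a mean above 10. It read 22.0, 24.4 and 21.5 in the control pools, 31.0, 31.8 and 37.8 under DEX, 22.2, 23.6 and 22.5 after 1 week and 24.0, 26.9 and 24.5 after 4 weeks. Each DEX pool exceeded each pool of the other groups, by 0.56 against control (SE 0.219, 95% interval 0.09 to 1.03, adjusted p = 0.615 in limma, 0.193 to 0.981 over the alternatives). *Rgs14* had 0 reads in all 6 control and DEX libraries, 5, 4 and 1 reads at 1 week and 1, 2 and 2 reads at 4 weeks. At 1 week it was at least 1.20-fold higher than the control floor and at least 1.32-fold higher than the DEX floor (0.961 and 1.06 times the floor without pool 2), and at 4 weeks all libraries were at or under the floor of 3 reads.

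The RZ family, which acts on Gz and Gi, was low. *Rgs19* was 7.08, 7.66 and 6.74 in the control pools, 8.28, 8.75 and 7.96 under DEX, 4.85, 11.7 and 5.34 after 1 week and 7.48, 10.4 and 10.2 after 4 weeks. Although its DEX pools lay above its control pools, the difference was 0.22 with an interval of -0.54 to 0.97. *Rgs20* was 4.48, 4.71 and 2.94 in the control pools, 2.57, 2.698 and 0.785 under DEX, 3.90, 3.19 and 4.45 after 1 week and 3.51, 2.41 and 2.08 after 4 weeks. Its DEX pools were below all control and 1 week pools (-1.11, 95% interval -2.18 to -0.05, adjusted p = 0.708 in limma, 0.381 to 0.981 over the alternatives). Without pool 3 of DEX the difference from control was -0.57. Its exons share 127 bp with those of *Atp6v1h* on the other strand, a gene with a mean of 128, and the part of such reads in the *Rgs20* values was not tested. *Rgs17*, and *Rgs22* from outside this family, stayed between 0.924 and 5.003.

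**Figure D4:**
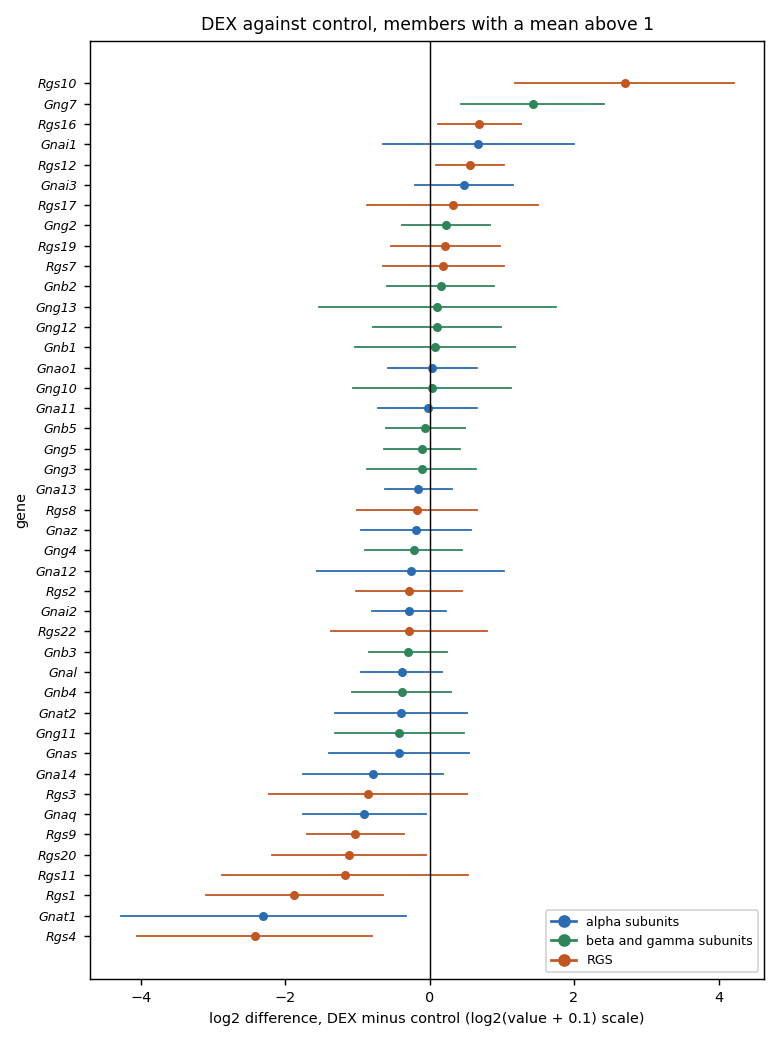
Log2 difference of DEX minus control (x axis, log2 of the normalised count + 0.1) for the 43 members with a mean above 1 (y axis), with 95% intervals from limma (bars). Blue are alpha subunits, green beta and gamma subunits and orange RGS genes. Most intervals include 0, and the RGS genes Rgs10 (2.70) and Rgs4 (-2.43) form the ends.

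After withdrawal the members were compared with control and with DEX. Against control, limma called 0 of 24736 genes (0%) at either time and so 0 members. At 1 week, 3 of 48 members had an unadjusted p under 0.05 (all genes 3.79%), 1 of 43 lay above control without overlap (*Rgs10*, all genes 3.19%) and 0 below (2.53%). At this time array weights, DESeq2 and edgeR also called 0 members (all genes 0.0162%, 0.0323% and 0.00809%). At 4 weeks, 3 of 48 had an unadjusted p under 0.05 (all genes 6.35%), 1 of 43 lay above control (*Gnai1*, 8.31%) and 2 below (*Gnaq* and *Rgs9*, 6.93%). Here array weights called 1 member, *Rgs9* (all genes 0.752%), and DESeq2 and edgeR called 0 (all genes 0.243% and 0%). The median difference of the 43 members was -0.0055 at 1 week and -0.050 at 4 weeks.

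Against DEX, limma called 107 genes (0.433%) at 1 week and 216 (0.873%) at 4 weeks, with 0 members in either. An unadjusted p under 0.05 was seen for 12 of 48 members at 1 week (25%, all genes 10.8%) and 7 of 48 at 4 weeks (14.6%, all genes 9.94%). At 1 week 6 of 43 members lay above DEX without overlap (all genes 7.27%), namely *Gnb4*, *Gna14*, *Gnal*, *Rgs3*, *Rgs1* and *Rgs20*, and 3 below (8.73%), namely *Rgs12*, *Rgs10* and *Rgs16*. Array weights called 4 members (*Rgs4*, *Rgs14*, *Gnb4* and *Gngt2*, all genes 2.29%), DESeq2 called 2 (*Gnb4* and *Gngt2*, all genes 2.32%) and edgeR called 0 (all genes 0.586%). Of these, *Rgs14* passed the filter only through the recovery pools, so its call is no support. At 4 weeks 8 of 43 lay above (all genes 11.5%) and 7 below (12.4%). The array weights called 3 members (*Rgs1*, *Gng11* and *Gngt2*, all genes 5.26%), DESeq2 called 1 (*Rgs1*, all genes 2.65%) and edgeR called 0 (all genes 0.865%). Between 4 weeks and 1 week, limma called 0 genes (0%), 1 of 48 members had an unadjusted p under 0.05 (all genes 5.47%), 2 of 43 were higher without overlap (6.51%) and 1 lower (3.4%). Array weights, DESeq2 and edgeR called 0 members there (all genes 0.0323%, 0.0606% and 0%). The summed somatotroph, lactotroph and gonadotroph markers were also higher in all 4 week pools than in all DEX pools. They were 152126 to 267718 against 68804 to 105788, 86868 to 120191 against 48592 to 73785 and 5208 to 6624 against 1285 to 4076. Most of each sum was 1 gene, *Gh*, *Prl* and *Cga*. Of the 6 markers in each list, 3, 2 and 2 were higher without overlap, 0 were lower, and limma called 0. The 5 thyrotroph markers also separated, at 468 to 732 against 55.4 to 268, with 2 higher without overlap and 1 lower. Limma called *Tshb* higher there (adjusted p = 0.0290). The part of these cells in the 4 week differences was not tested. The contrasts with DEX share the DEX pools with each other and with the comparison of DEX and control.

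The spread between pools set what could be seen. Over the 31 members with a mean above 10 the median SD within groups was 0.44 on the log2 scale, against 0.38 for 9548 genes of that level. Members ranged from 0.10 for *Rgs12* to 1.31 for *Rgs11*, and the 95% interval of a DEX difference from control reached 0.47 to 1.70 to either side. Pool 3 of control and pool 3 of the 1 week group deviated alike in several members, with the highest *Gnaq* values of all libraries (62.8 and 88.1), the highest *Gna12* (46.4 and 37.1) and the lowest *Gnai3* (42.7 and 67.3) and *Gng12* (13.2 and 21.7).

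The other genes of the pathway were taken from 8 lists of 61 genes, which include adenylyl cyclases, phospholipase C beta, G protein regulated potassium channels, receptor kinases and arrestins, chaperones and GoLoco proteins, receptors, and other proteins with an RGS domain. Of these, 60 were tested, 0 passed limma's F test (all genes 0.315%) and 8 had an unadjusted p under 0.05 (13.3%, all genes 9.21%). In the contrasts only *Sstr2*, a somatostatin receptor that couples to Gi, was called. It had means of 2.26 ± 0.781 (control), 0.534 ± 0.113 (DEX), 4.55 ± 2.61 (1 week) and 7.35 ± 4.76 (4 weeks; SD, n = 3), and it rose from DEX to 4 weeks by 3.33 on the log2 scale (adjusted p = 0.0208, limma). *Avpr1b*, the V1b receptor, was 60.0, 25.6 and 12.1 in control and 103, 67.9 and 130 in DEX, where all pools lay above control, with an adjusted p of 0.741 in limma. *Crhr1* was 189, 95.2 and 85.5 in control and 52.7, 59.2 and 138 in DEX, which overlapped. Among the adenylyl cyclases, 4 of 10 had an unadjusted F test p under 0.05, among them *Adcy2*, with means of 27.2 ± 9.54 (control), 44.0 ± 22.7 (DEX), 12.5 ± 6.89 (1 week) and 19.8 ± 2.87 (4 weeks; SD, n = 3, adjusted p = 0.190, limma F test).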

How the data were processed

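RNA from sorted eGFP-positive anterior pituitary cells was measured in 12 libraries of 4 groups, grouped by the sample labels. The RNA was below the detection limit of the fluorometer and was amplified with SMART-V4 and made into libraries with Nextera XT. Per the labels and the methods of the study, the authors trimmed reads with Trim Galore 0.6.5, aligned them to GRCm38 (Ensembl release 98) with STAR 2.7.1a and counted pairs of mapping quality 20 or more with featureCounts 2.0.0 in reverse-stranded mode, although the kit does not mark strand. What the authors deposited is a normalised signal for each gene, namely CPM on the library size after TMM scaling in edgeR. Of the 271881 values above 0, 100% were whole reads within a tolerance of 1e-06, so reads could be recovered. Amplification from such small amounts adds error that counting intervals and floors do not cover.

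Log2(value + 0.1) of the 24736 genes above 0.1 in at least 3 libraries entered limma 3.58.1 in R 4.3.3, with a trend, all 12 libraries in 1 model and no covariate. Log2 differences are on this scale, on which changes of low genes come out too small. Adjusted p are Benjamini-Hochberg values over all genes tested, called under 0.05, and p are two-sided. The floor was 3 reads per library. Alternatives were pseudocounts of 0.5 and 1, no filter, a filter at 1, median ratio scaling, array weights, a block for the pool number, omission of each library in turn, edgeR 4.0.16 (quasi-likelihood) and DESeq2 1.42.0 on the recovered reads. The limma fit was tested on simulated data with large changes in DEX alone, placed in genes well above the floor, and the same spread for all genes. That simulation does not cover low members, small changes or members with a wide spread between pools. Deviations from the group means correlated by 0.14 to 0.40 in all 3 same-numbered pairs of control and 1 week, which meets the rule for pairing (over 0.1 in every pair). In the other comparisons at least 1 pair was lower, and the labels do not say what the number marks. Libraries of 1 group were never identical, with a chi-square per gene of 15.9 to 145 over the 12 pairs. No column of per-sample values was left unused.

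The members and the gene lists were chosen with earlier results of these data known. Each library's value was printed for members called, for those whose unadjusted p in the F test was under 0.05, for the 2 most abundant members of each class and, in each contrast against control, for the 3 with the largest difference among those whose pools did not overlap and whose mean was above 1. Other members given with values by library or by group (*Gnb4*, *Gnat1*, *Gna14* and *Gng11*), and the pathway genes *Sstr2*, *Avpr1b*, *Crhr1* and *Adcy2*, were picked after their values were seen. Gene positions and exon lengths came from GENCODE M21 and promoter windows from RefSeq, both on GRCm38. Levels per kb used the union of a gene's exons.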

Additional observations from a re-analysis of the deposited data

How the results depend on the processing

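All 751 alternative values of the 36 member differences with an unadjusted p under 0.05 kept their direction, and 18 of them passed the threshold that limma did not. The 36 were picked by their p in the same 12 libraries that the alternatives fit again. A kept direction was therefore nearly fixed in advance and is no independent support. In the F test 0 members were called, against 6 with array weights and 3 in DESeq2. For DEX against control the 0 became 1 with array weights (*Rgs4*) and 1 in DESeq2 (*Rgs10*), and for 4 weeks against control 1 with array weights (*Rgs9*). For 1 week against DEX it became 4 with array weights and 2 in DESeq2. For 4 weeks against DEX it became 3 with array weights, 1 in DESeq2 and 1 with a filter at 1. Leaving out 1 library at a time gave 0 to 1 members for 1 week against DEX (*Gngt2* without pool 1 and *Rgs4* without pool 3 of the 1 week group), 0 to 2 for 4 weeks against DEX (*Rgs1* without pool 1 of control, and *Rgs1* and *Gngt2* without pool 3 of the 1 week group) and 0 in the other comparisons. The causes were not tested. With the pool number as a replicate block 0 members were called in every comparison. Over the 4 groups same-numbered libraries correlated from -0.29 to 0.40 in their deviations from the group means, and 8 of 12 correlated best with their own number. A fit of control and 1 week alone with the replicate block, chosen after seeing the data, called 0 members and 0 genes, with 4 members and 906 genes at an unadjusted p under 0.05, and gave *Rgs9* -0.90 (adjusted p = 0.962 in limma). Median ratio scaling moved the median gene by at most 0.021 on the log2 scale in size (-0.021 for DEX against control). At a median of 10227503.5 reads per library, members under a value of 1 rest on a handful of reads.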

Other observations

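Summed markers of other cell types differed between some of the groups. The 8 pericyte and fibroblast markers summed to 99.1 to 157 normalised counts in control, 78.6 to 120 in DEX, 89.2 to 231 at 1 week and 180 to 294 at 4 weeks, and limma called *Col3a1* and *Pdgfrb* higher at 4 weeks than in DEX. The 7 stem and folliculostellate markers summed to 119 to 292, 294 to 309, 150 to 262 and 327 to 445 in the same order. Most of this sum was *Cyp2f2* (means of 144 in control and 266 in DEX), and 5 of the 7, *Sox2*, *Sox9*, *S100b*, *Cdh26* and *Gfra2*, had lower means in DEX than in control. The 4 melanotroph markers summed to 88.3 to 97.3, 43.5 to 61.7, 58.5 to 165 and 87.5 to 101, of which limma called *Esm1* lower in DEX than in control. Most of the fall in DEX was *Esm1* (means of 37.4 in control and 3.42 in DEX). The means of *Pcsk2* were 52.0 and 47.3, those of *Oacyl* 3.16 and 1.74, and those of *Pax7* 0.109 and 0.112. The 5 thyrotroph markers summed to 137 to 292, 55.4 to 268, 138 to 322 and 468 to 732. Sums of the somatotroph, lactotroph and gonadotroph markers overlapped between control and DEX. The erythroid and platelet markers never summed above 40.2, and the 6 pituicyte and glia markers never summed above 9.31. Which of these cells carry the transcripts of a given member was not tested.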
